A study of Drosophila melanogaster with 12 samples.

Results

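The genes described here encode the proteins of the mitochondrial ribosome of Drosophila melanogaster. They were chosen by name, as the rows of the count table whose gene symbol begins with mRpL (large subunit) or mRpS (small subunit). There were 72 such genes, 47 mRpL and 25 mRpS, among 17558 rows. RNA was sequenced from whole midguts of adult virgin flies of both sexes, in 12 libraries that form 4 groups of 3. In dsxRNAi females and dsxRNAi males an interference construct against doublesex (dsx), the gene at the base of the fly's somatic sex-determination pathway, stood over mex1-Gal4, a driver active in the absorptive enterocytes, with tub-Gal80ts over a plain chromosome. Control females and control males carried mex1-Gal4 over a plain chromosome and UAS-GFP over tub-Gal80ts. All 4 groups share mex1-Gal4, tub-Gal80ts and the X-linked alleles y[1] v[1] / w[*] of the labelled genotype. All flies were kept for 6 days at 18 °C, where Gal80ts holds the driver off, then for 4 days at 29 °C, where it is released, and were 10 days old. The driver reaches enterocytes, whereas the libraries hold the RNA of every cell of the midgut, so fewer cells of a type and less RNA per cell cannot be told apart.

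Mitochondria carry their own ribosome, which makes the few proteins that the mitochondrial genome encodes, all of them membrane subunits of the respiratory chain and the ATP synthase. Its ribosomal RNAs come from the mitochondrial genome, but its proteins are encoded in the nucleus, made in the cytoplasm and imported. The small subunit binds the messenger RNA and reads the codons, and the large subunit joins the amino acids and releases the chain at its exit tunnel towards the inner membrane. Many of the proteins descend from bacterial ribosomal proteins and others occur only in mitochondria. The names do not always give the position, since the human counterparts of mRpS18A and mRpS30 sit in the large subunit. In the fly, bonsai, a further small-subunit protein with a name of its own, is known for a role in gut mitochondria and body growth.

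The libraries held 36212113 to 45068874 counts. Expression is given as CPM on edgeR's TMM scale, which centres most genes on no change. A gene counts as called where edgeR's quasi-likelihood test gave it a p under 0.05 after adjustment over all 9686 genes tested, and all changes are log2. Transcripts of dsx averaged 39.8 ± 4.14 CPM in dsxRNAi males and 60.8 ± 8.58 CPM in control males (SD, n = 3 each, log2 -0.61, adjusted p = 0.00643). In females they did not differ detectably (19.5 ± 2.94 CPM in dsxRNAi females against 20.1 ± 1.36 CPM in control females, log2 -0.04, adjusted p = 0.946). Control male library 1 stood apart in RNA of the male accessory gland, with 80.7 CPM summed over 6 markers against at most 0.180 CPM in each of the other 11 libraries. Nothing in the labels says whether libraries of a group came from separate sets of flies, so p-values measure the spread between these libraries. No test with 3 libraries against 3 can give an exact permutation p below 0.1, and each member called between 2 groups had that value, with group ranges that did not overlap.

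Of the 72 genes, 71 passed the expression filter, 46 of the large and 25 of the small subunit. The exception was mRpL53, with 0 counts in all 12 libraries. Every exonic base of its 829 bp is shared with CG33155 on the same strand, and that gene averaged 0.303 CPM. The counts therefore say nothing about mRpL53 itself. The other members were steadily expressed, with 196 to 6857 counts per gene and library and a median of 613, close to the median of 638 over all tested genes. Mean levels over the 12 libraries ran from 6.04 CPM for mRpS18C to 136 CPM for mRpS5, around a median of 14.6 CPM. The spread of a member over the 12 libraries had a median SD of 10.1% of its mean, against 15.7% over all tested genes and 11% over tested genes at the levels of the members.

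Per kilobase of exon, most members lay close together in control libraries. Their mean levels had a median of 17.7 CPM per kb, and the quartiles were 14.6 and 23.8 CPM per kb. The lowest were mRpL21 (7.51 CPM per kb), mRpS14 (8.38 CPM per kb) and mRpL44 (9.91 CPM per kb). The highest were mRpS5 (85.5 CPM per kb), mRpL12 (43.6 CPM per kb) and mRpL28 (42.2 CPM per kb). The protein of mRpL12 forms the stalk that recruits translation factors, and in the fly the gene is required for growth driven by Cyclin D. The bacterial counterpart of mRpS5 contributes to the accuracy of decoding. mRpS5 stood clear of every other member, and the remaining 70 tested genes spanned 7.51 to 43.6 CPM per kb. Its identifier in the table differs from that of the annotation, so its exonic length of 1682 bp (build dm6, 3L, 24537236 to 24543534) was taken from the gene of the same symbol.

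**Figure D1:**
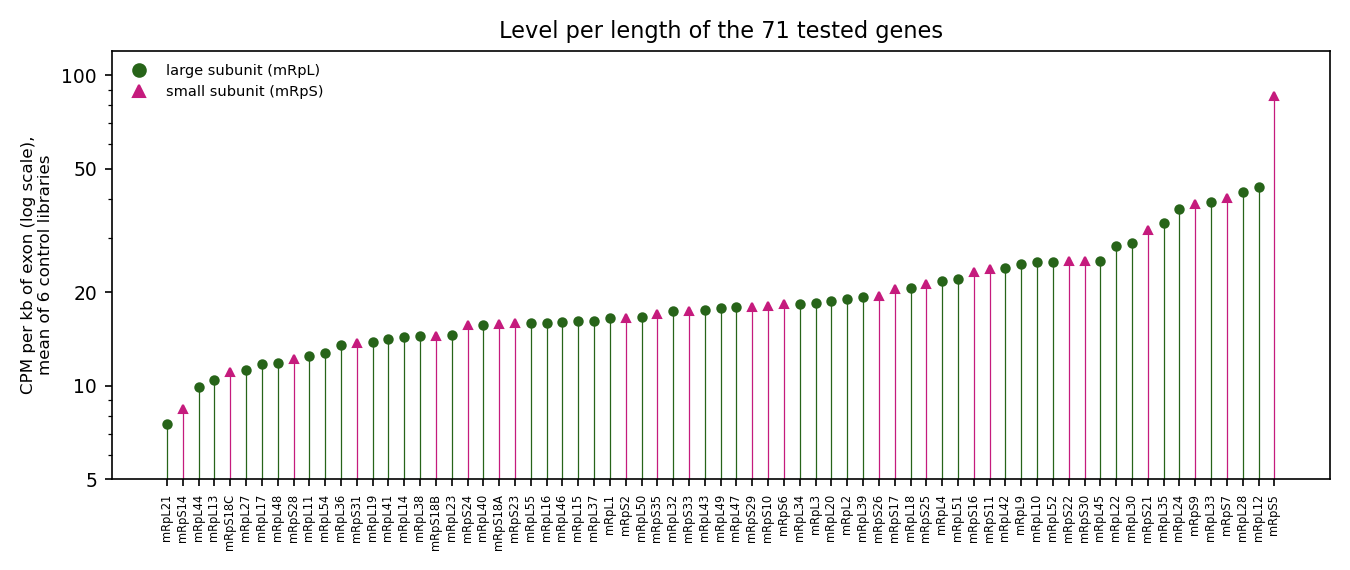
Mean TMM-scaled CPM per kb of exon of each of the 71 tested mitochondrial ribosomal protein genes over the 6 control libraries, on a log axis, with genes ordered from lowest to highest and subunits marked by colour and symbol. mRpS5 stands alone at 85.5 CPM per kb, and the next gene, mRpL12, lies at 43.6 CPM per kb.

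In males, mitochondrial ribosomal protein genes were higher under dsxRNAi on the TMM scale, a direction that was lost with library totals as the only scaling. Of the 71 tested members, 26 were called higher in dsxRNAi males and 0 lower, that is 16 of 46 large-subunit and 10 of 25 small-subunit genes. Over all tested genes 8.05% were called higher, 6.59% lower and 14.6% in either direction. The median change of the members was 0.23, between -0.17 for mRpS5 and 0.56 for mRpL27, and 67 of 71 lay above 0, against a median of -0.01 over all tested genes. The median was 0.23 in the large and 0.23 in the small subunit. All dsxRNAi male libraries lay above all control male libraries for 47 members and below them for 0 (38.6% of all tested genes had ranges that did not overlap). The changes were small, and no called member reached a 1.5-fold difference.

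**Figure D2:**
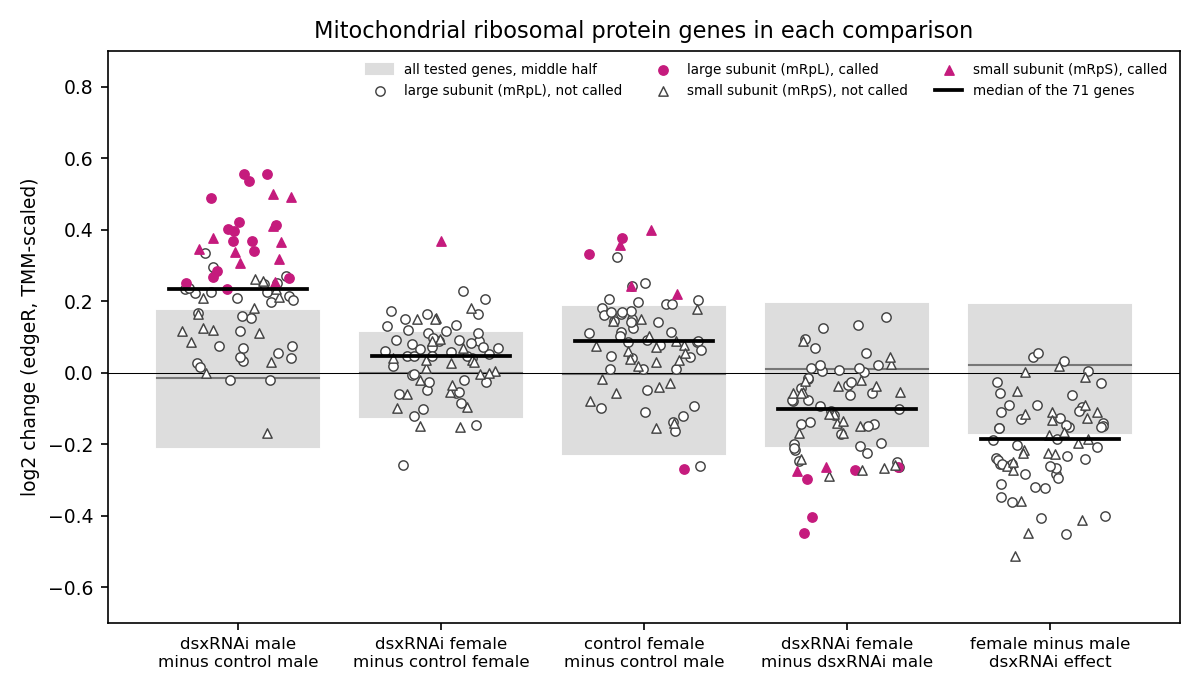
Log2 change of each of the 71 tested mitochondrial ribosomal protein genes in 5 comparisons on the TMM scale (circles, large subunit; triangles, small subunit; filled, called by edgeR; thick line, median of the 71 genes; grey band and thin line, quartiles and median of all 9686 tested genes). The members sit above the all-gene median in the male dsxRNAi comparison (median 0.23) and below it in the dsxRNAi sex comparison (median -0.10) and in the difference between the sexes (median -0.19). With library totals as the only scaling these medians were -0.02, 0.06 and 0.03.

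The most clearly called large-subunit gene was mRpL24, whose bacterial counterpart lies at the mouth of the exit tunnel (2L, 4944256 to 4945361). It had 44.5, 45.9 and 42.4 CPM in dsxRNAi males and 31.9, 32.3 and 30.4 CPM in control males. The groups lay well apart, and the change was 0.49 ± 0.06 (SE, adjusted p = 0.000175). mRpL13, counterpart of an early assembly protein of the bacterial large subunit, had 10.1, 9.72 and 10.0 CPM in dsxRNAi males and 6.83, 7 and 6.52 CPM in control males (log2 0.55 ± 0.08, adjusted p = 0.000777). Its reads carry a reservation, because 236 bp of its exons, 35.2% of their length, are shared on the same strand with CG10602, a gene at 214 CPM. mRpL27, whose bacterial counterpart reaches towards the peptidyl transferase centre, had 15.6, 15.0 and 13.3 CPM in dsxRNAi males against 9.84, 10.5 and 9.52 CPM in control males (log2 0.56 ± 0.09, adjusted p = 0.00141). The groups of mRpL27 were thus also apart, with dsxRNAi male 3 the nearest to the controls. The stalk gene mRpL12 had 40.9, 40.1 and 39.2 CPM in dsxRNAi males against 31.0, 30.8 and 29.3 CPM in control males (log2 0.40 ± 0.06, adjusted p = 0.00159).

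The 8 genes with the smallest p hold 2 more of the large subunit. mRpL47, the counterpart of a bacterial protein beside the exit tunnel, had 19.6, 19.4 and 20.7 CPM in dsxRNAi males and 14.8, 16.1 and 14.5 CPM in control males (log2 0.40 ± 0.07, adjusted p = 0.00235). mRpL51, a protein found only in mitochondria, had 18.2, 16.2 and 18.8 CPM in dsxRNAi males against 13.3, 12.4 and 11.1 CPM in control males (log2 0.54 ± 0.10, adjusted p = 0.00336). In neither gene did a control male library reach the dsxRNAi male range. The other called large-subunit genes were mRpL4, mRpL9, mRpL11, mRpL20, mRpL22, mRpL28, mRpL41, mRpL45, mRpL49 and mRpL55, with changes of 0.23 (mRpL22) to 0.42 (mRpL55) and adjusted p-values of 0.00527 (mRpL11) to 0.0462 (mRpL4).

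Among small-subunit genes, mRpS31 and mRpS33, which encode proteins found only in mitochondria, had the smallest p. mRpS31 (3L, 16005193 to 16006599) had 25.4, 24.4 and 22.5 CPM in dsxRNAi males against 18.2, 16.7 and 16.2 CPM in control males (log2 0.50 ± 0.09, adjusted p = 0.0026). mRpS33 had 11.5, 10.8 and 11.6 CPM in dsxRNAi males and 7.97, 8.59 and 7.54 CPM in control males (log2 0.49 ± 0.09, adjusted p = 0.00273). In both genes every dsxRNAi male library lay above every control male library. The other called small-subunit genes were mRpS2, mRpS7, mRpS14, mRpS18B, mRpS18C, mRpS21, mRpS28 and mRpS35, with changes of 0.25 (mRpS7) to 0.41 (mRpS14) and adjusted p-values of 0.00858 (mRpS14) to 0.0455 (mRpS18C). The 4 members with a change below 0 were mRpS5, mRpL10, mRpL42 and mRpS29, all without a call.

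**Figure D3:**
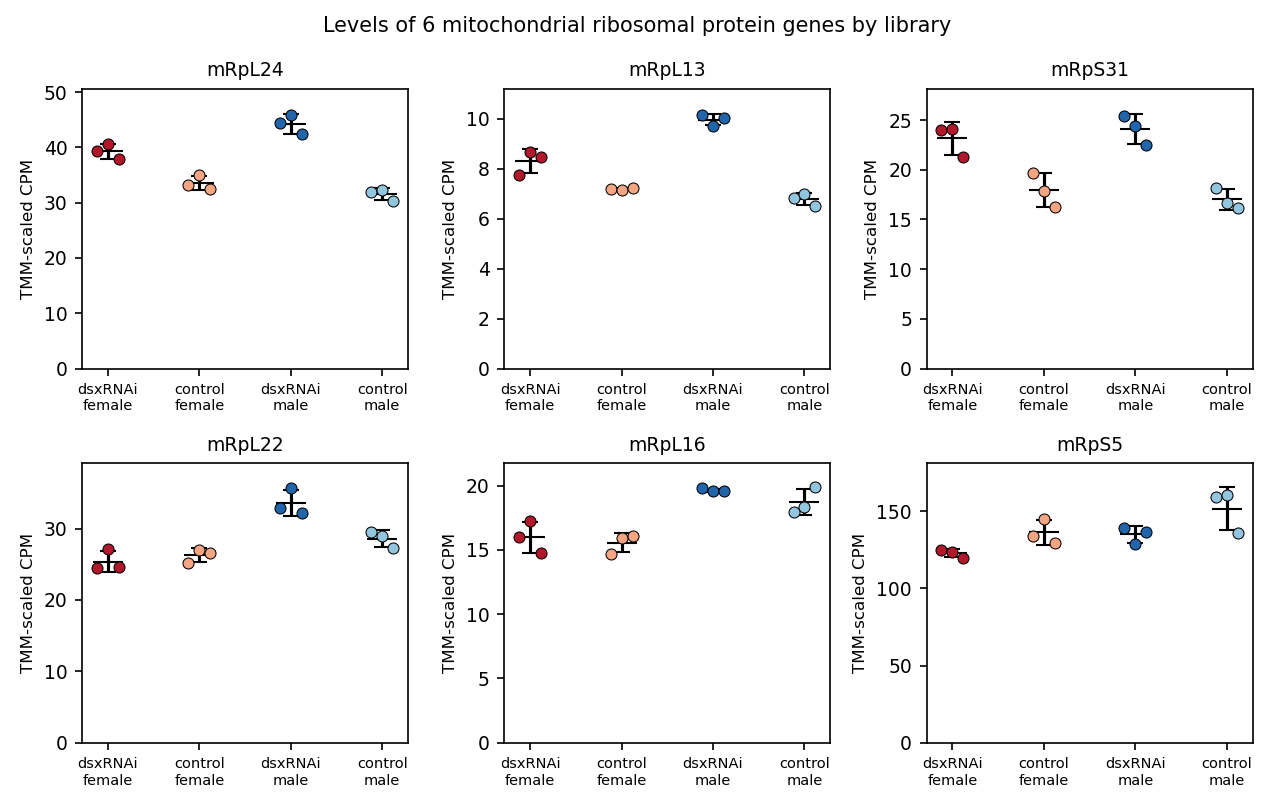
TMM-scaled CPM of mRpL24, mRpL13, mRpS31, mRpL22, mRpL16 and mRpS5 in each of the 12 libraries (points), with mean and SD of 3 libraries (bars), from 0. mRpL24 and mRpL13 are higher in dsxRNAi males than in control males, mRpS31 is higher under dsxRNAi in both sexes, and mRpL22 is lower in dsxRNAi females than in dsxRNAi males. With library totals as the only scaling, the mRpL24 and mRpL22 calls of these comparisons were kept and those of mRpL13 and mRpS31 were not.

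The direction of the male difference depends on what the counts are set against. The TMM factors were 0.865 to 0.935 in dsxRNAi males and 1.03 to 1.11 in control males. Without these factors, on library totals only, an alternative added after the data were seen, 4 members were called in males, mRpL24 and mRpL27 higher and mRpL42 and mRpS5 lower. Over all 9686 tested genes 3199 were called on that scale. The median of the members was then -0.02, that of all tested genes -0.27. The members thus lay 0.25 above the median gene on either scale. As a share of all raw counts the 72 genes made up 0.135 ± 0.00447% in dsxRNAi males and 0.141 ± 0.00313% in control males, without overlap and lower under dsxRNAi, whereas their summed TMM-scaled CPM was 1500 ± 33.9 in dsxRNAi males and 1321 ± 64.8 in control males, without overlap and higher. The 10 most abundant genes took 20.7 ± 0.332% of the counts in dsxRNAi males and 17.0 ± 0.480% in control males, and their part in the result was not tested.

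**Figure D4:**
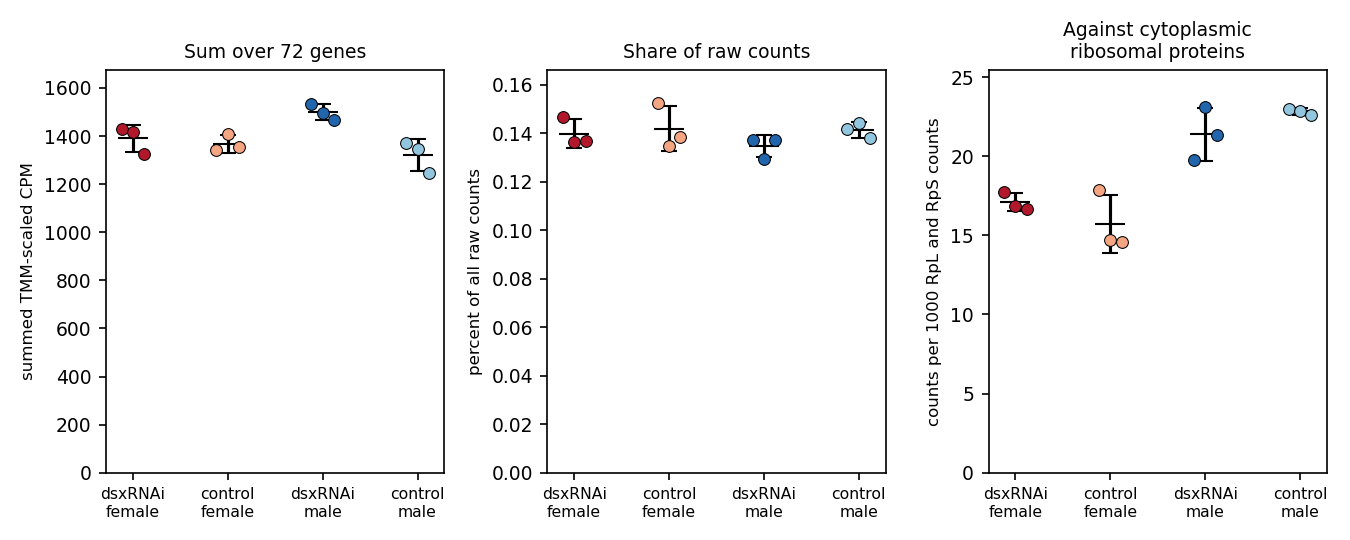
The 72 genes together in each library (points; bars, mean and SD, n = 3): the sum of their TMM-scaled CPM, their percent of all raw counts, and their counts per 1000 counts of cytoplasmic ribosomal protein genes, all axes from 0. dsxRNAi males lie above control males in the first panel (1500 against 1321 CPM) and below them in the second (0.135 against 0.141%).

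The male call count also depended on which libraries were kept. It was 14 with dsxRNAi male 1 left out, 16 with dsxRNAi male 2, 13 with control male 2 and 12 with control male 3. It was 22 with dsxRNAi male 3 left out, and also 22 with control male 1, the library with accessory gland RNA. Over all tested genes the 1418 calls fell as well, to 961, 1195, 856, 921, 1144 and 1059 in the same order. The 11 genes mRpL11, mRpL12, mRpL13, mRpL24, mRpL27, mRpL47, mRpL51, mRpS14, mRpS21, mRpS31 and mRpS33 were called in each of these 6 fits.

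mRpS5, the most abundant member, made up a smaller part of the set under dsxRNAi in both sexes. It held 9.06, 8.61 and 9.30% of the summed CPM of the members in dsxRNAi males and 11.6, 11.9 and 10.9% in control males. In females its share was 8.75, 8.68 and 9.02% in dsxRNAi females against 9.98, 10.3 and 9.56% in control females. The shares did not overlap between genotypes in either sex, and they do not depend on the library scaling. Other members also had shares without overlap in both sexes. Among them, that of mRpL42 was lower under dsxRNAi and those of mRpL24 and mRpS31 were higher. As a single gene on the TMM scale mRpS5 was not called, with 135 ± 5.34 CPM in dsxRNAi males against 152 ± 13.7 CPM in control males (log2 -0.17, adjusted p = 0.174) and 123 ± 2.68 CPM in dsxRNAi females against 136 ± 8.10 CPM in control females (log2 -0.15, adjusted p = 0.423). The summed CPM of the small subunit as a percentage of that of the large was 72.7 ± 1.03 in dsxRNAi males and 78.2 ± 1.53 in control males. Without mRpS5 the same percentages were 57.2 ± 0.452 in dsxRNAi males and 57.8 ± 0.652 in control males, and the groups overlapped.

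Some markers of cell types differed between dsxRNAi males and control males, and others did not. Enterocyte markers summed to 41269 to 44817 CPM in dsxRNAi males and 33221 to 35908 CPM in control males, and 1 of 7 was called higher. Single enterocyte markers moved unevenly, with 4 of 7 above 0 and 3 below, a median of 0.15 and a range from -0.25 to 2.79. In dsxRNAi males the sums were lower for progenitor markers (45.3 to 62.8 against 69.1 to 75.7 CPM in control males, 1 of 6 called lower) and enteroendocrine markers (519.7 to 583 against 652 to 676 CPM, 3 of 8 called lower). Malpighian tubule markers gave 33.8 to 35.7 CPM in dsxRNAi males and 51.5 to 59.5 CPM in control males, and 2 of 4 tested were called lower. Visceral muscle markers gave 1701 to 1785 CPM in dsxRNAi males and 1594 to 1686 CPM in control males, with 0 of 6 called. Copper cell markers gave 393 to 464 CPM in dsxRNAi males and 357 to 436 CPM in control males, which overlapped, with 0 of 4 called. The 1 tested of 7 ovary markers was not called (log2 -0.04). Of 8 testis markers 7 were at or near 0 in all male libraries, and the eighth, topi, was lower in dsxRNAi males (5.12 ± 0.152 CPM against 8.48 ± 2.06 CPM in control males, log2 -0.73, adjusted p = 0.00904). Fat body and hemocyte markers summed to 2.05 to 3.28 CPM in dsxRNAi males and 4.42 to 8 CPM in control males, without overlap, with 0 of 6 tested called. Of these 6, 3 had changes above 0 and 3 below, in a range from -1.49 to 0.62. The part of these cell types in the member differences was not tested.

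In females few of these genes differed under dsxRNAi. A single member, mRpS31, was called higher in dsxRNAi females than in control females and 0 lower, where 1.91% of all tested genes were called higher, 1.55% lower and 3.46% in either direction. The median change was 0.05, with a range from -0.26 for mRpL21 to 0.37 for mRpS31, and 69 of 71 members lay within 0.25 of 0. For 70 of the 71 the 95% interval of the change stayed within 0.5 on either side of 0. Ranges did not overlap for 6 members above and 5 below, against 17% of all tested genes. The summed CPM of the members was 1391 ± 56.2 in dsxRNAi females and 1368 ± 36.7 in control females, which overlapped, as did the shares of raw counts (0.140 ± 0.00586% in dsxRNAi females and 0.142 ± 0.00935% in control females). Fat body and hemocyte markers, which include the yolk proteins, summed to 21.1 to 46.5 CPM in dsxRNAi females and 84.6 to 145 CPM in control females, and 2 of 6 tested were called lower. Their part in the member values was not tested.

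mRpS31 was the one member called under dsxRNAi in both sexes. It had 24.0, 24.2 and 21.3 CPM in dsxRNAi females against 19.7, 17.9 and 16.3 CPM in control females, next to 24.1 ± 1.47 CPM in dsxRNAi males and 17.0 ± 1.04 CPM in control males. All dsxRNAi libraries of a sex thus lay above the controls of that sex, and the female change was 0.37 ± 0.09 (adjusted p = 0.0368). That call was lost without dsxRNAi female 1 or 2 or control female 2 or 3 (adjusted p = 0.083 to 0.17), on library totals only (adjusted p = 0.19) and in a fit of only these 2 groups (adjusted p = 0.13). mRpL24 came next, with 39.3 ± 1.38 CPM in dsxRNAi females against 33.5 ± 1.29 CPM in control females (log2 0.23, adjusted p = 0.0516). On sign alone, 47 members had changes above 0 in both sexes, 4 below 0 in both and 20 opposite signs.

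The dsxRNAi effects of the sexes were then set against each other, as the female change minus the male change. By edgeR 0 of 71 members were called (0.805% of all tested genes, 0.258% higher and 0.547% lower). An unadjusted p under 0.05 was found for 19 members, a count not set against that of all tested genes. DESeq2 called 2 members, mRpL47 and mRpS33, both lower, and 344 of all 14368 genes it fitted. The difference was below 0 for 65 members on the TMM scale, with a median of -0.19 against 0.02 over all tested genes, and the median was 0.03 against 0.23 on library totals only. mRpL47 had the smallest p (log2 -0.40 ± 0.10, adjusted p = 0.0800), with changes of -0.01 in females and 0.40 in males. mRpS33 followed (log2 -0.45 ± 0.12, adjusted p = 0.113), with changes of 0.04 in females and 0.49 in males. A called rise in males and none in females is therefore not shown to be a difference between the sexes for any single member by edgeR.

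For most members no difference between control females and control males passed the threshold. In control females 6 members were called higher than in control males and 1 lower, and the median was 0.09, while 10.7% of all tested genes were called higher, 9.27% lower and 20% in either direction. Ranges did not overlap for 20 members above and 5 below (37.4% of all tested genes). mRpL32, a protein that in yeast and mouse is cut by the mitochondrial m-AAA protease before it joins the ribosome, had 14.3, 14.1 and 13.1 CPM in control females against 11.1, 11.6 and 9.30 CPM in control males (log2 0.38 ± 0.09, adjusted p = 0.0124). mRpS22, found only in mitochondria, had 36.1, 35.6 and 37 CPM in control females against 32.2, 30.7 and 30.5 CPM in control males (log2 0.22 ± 0.05, adjusted p = 0.0137). The female libraries of both genes lay above every male one. mRpS18C (log2 0.40, adjusted p = 0.0232), mRpS28 (log2 0.36, adjusted p = 0.0236), mRpL51 (log2 0.33, adjusted p = 0.0290) and mRpS21 (log2 0.24, adjusted p = 0.0384) were also higher in control females. Cell type markers also differed between these groups. Called lower in control females were 7 of 8 enteroendocrine markers (403 to 495 CPM in sum, against 652 to 676 CPM in control males) and 3 of 6 visceral muscle markers (1272 to 1598 against 1594 to 1686 CPM). So were 1 of 7 enterocyte markers (24995 to 37545 against 33221 to 35908 CPM) and 1 of 4 tested Malpighian tubule markers (34.7 to 45.7 against 51.5 to 59.5 CPM). However, 3 of these 4 Malpighian tubule markers had changes above 0, and their median was 0.48. Called higher in control females were 2 of 4 copper cell markers (437 to 489 against 357 to 436 CPM) and 4 of 6 fat body and hemocyte markers (84.6 to 145 against 4.42 to 8 CPM). Of the 4 copper cell markers, 1 had a change below 0 (log2 -0.19). The 1 tested of 7 ovary markers was also called higher (log2 0.32). The part of these cell types in the member differences was not tested.

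The exception among the called genes was mRpL16, whose bacterial counterpart lies near the peptidyl transferase centre (X, 1890256 to 1891482). It had 14.7, 15.9 and 16.1 CPM in control females and 18.0, 18.4 and 19.9 CPM in control males (log2 -0.27 ± 0.07, adjusted p = 0.0232). The same gene was lower in females under dsxRNAi, with 16.0, 17.2 and 14.8 CPM in dsxRNAi females and 19.8, 19.6 and 19.6 CPM in dsxRNAi males (log2 -0.30 ± 0.07, adjusted p = 0.0217). No female library of either genotype reached the lowest male one. On library totals only, mRpL16 was the single member called between control females and control males, where 1620 of all 9686 tested genes were called. The count of 7 member calls fell to 1 without control male 2, to 2 without control male 3 and to 4 without control female 3. Over all tested genes the 1937 calls fell to 1380, 1493 and 1325 in these fits.

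Under dsxRNAi the median sex difference had the other sign on the TMM scale, though not on library totals only. In dsxRNAi females 0 members were called higher and 7 lower than in dsxRNAi males, with a median of -0.10 (7.76% of all tested genes were called higher, 7.06% lower and 14.8% in either direction). Ranges did not overlap for 2 members above and 25 below (35.7% of all tested genes). This comparison shares the dsxRNAi male libraries with the male dsxRNAi comparison, so they are not independent of each other. mRpL22, counterpart of a bacterial protein that lines the exit tunnel (X, 16783933 to 16785092), had 24.5, 27.1 and 24.6 CPM in dsxRNAi females and 32.9, 35.7 and 32.2 CPM in dsxRNAi males (log2 -0.41 ± 0.07, adjusted p = 0.00258). mRpL36, counterpart of a very small bacterial protein, had 7.15, 6.97 and 5.63 CPM in dsxRNAi females against 9.81, 9.08 and 8.06 CPM in dsxRNAi males (log2 -0.45 ± 0.11, adjusted p = 0.0220). Both genes separated the sexes completely.

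mRpS7, counterpart of a protein of the head of the bacterial small subunit, had 37.2, 38.4 and 35.8 CPM in dsxRNAi females and 45.2, 44.1 and 44.5 CPM in dsxRNAi males (log2 -0.26 ± 0.06, adjusted p = 0.0180). mRpL11, at the base of the stalk (log2 -0.27, adjusted p = 0.0431), mRpS11 (log2 -0.28, adjusted p = 0.0434) and mRpL13 (log2 -0.26, adjusted p = 0.0437) were also lower in dsxRNAi females. On library totals only the median was 0.06, that of all tested genes was 0.17, and 2 members were called, mRpL22 lower and mRpL42 higher. Over all 9686 tested genes 2324 were called on that scale. The 7 member calls fell to 1 without dsxRNAi female 3, to 2 without dsxRNAi male 2, to 3 without dsxRNAi male 1 and to 4 without dsxRNAi female 2. Over all tested genes the 1436 calls fell to 637, 671, 1076 and 958 in these fits. In the same comparison 4 of 8 enteroendocrine markers were called lower in dsxRNAi females (472 to 503 CPM in sum, against 519.7 to 583 CPM in dsxRNAi males) and 4 of 6 fat body and hemocyte markers higher (21.1 to 46.5 against 2.05 to 3.28 CPM). Sums were also lower in dsxRNAi females for enterocyte markers (35699 to 38453 against 41269 to 44817 CPM) and visceral muscle markers (1494 to 1660 against 1701 to 1785 CPM). They were higher for ovary markers (20.8 to 23.7 against 14.4 to 17.3 CPM) and testis markers (6.52 to 7.83 against 5.08 to 5.44 CPM). Sums of progenitor, copper cell and Malpighian tubule markers overlapped. Whether these marker differences play a part in those of the members was not tested. Over the 4 comparisons of 2 groups, 40 tested members were called in none, 21 in 1, 10 in 2 and 0 in more.

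The members are scattered over the genome, with 12 on 2L, 12 on 2R, 16 on 3L, 21 on 3R and 11 on X. In males, 9 of the 12 members on 2L were called higher under dsxRNAi, against 186 of all 1757 tested genes of that arm. The other arms gave 2 of 11 on 2R, 4 of 16 on 3L, 8 of 21 on 3R and 3 of 11 on X. Over all tested genes of these arms 166 of 1914 were called higher on 2R, 141 of 1821 on 3L, 172 of 2316 on 3R and 94 of 1590 on X. On library totals only, the 2 members called higher, mRpL24 and mRpL27, both lie on 2L. In females under dsxRNAi 0 of the 12 members on 2L were called, with a median of 0.07. Of all 1757 tested genes of 2L, 66 were called higher and 31 lower in that comparison. By the order of the genotype the dsxRNAi construct lies on the second chromosome, over mex1-Gal4, so dsxRNAi and the chromosome that carries it cannot be told apart. The same holds for UAS-GFP, which only the controls carry. Members on X were also compared between the sexes. Between control females and control males 0 of 11 were called higher and 1 lower, with a median of -0.03, where all 1590 tested X-linked genes had 320 called higher, 166 lower and a median of 0.07. Between dsxRNAi females and dsxRNAi males the 11 members had a median of -0.20, with 0 called higher and 2 lower, against a median of 0.08 over X-linked genes, of which 277 were called higher and 129 lower.

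Length, level and overlapping genes were compared with the changes as a description. Across the 71 genes, which share libraries, the male dsxRNAi change had a Spearman correlation of -0.30 with exonic length and of -0.27 with level per kb in controls. In females the values were -0.01 for length and -0.23 for level. The exons of 41 tested members are overlapped by another gene, mostly antisense. In males 16 of these 41 and 10 of the other 30 were called higher, with medians of 0.25 and 0.23. All 7 members called between control females and control males were among the 41. No source used here says whether counting used the strand, so reads of such pairs may not be separable. The overlap was 48.0% of the exonic length in mRpS21, whose partner CG8870 had 0.2 CPM, and 11% or less in the other 6. In mRpS14, 255 bp (32%) overlap Naa15-16, itself higher in dsxRNAi males (log2 0.19, adjusted p = 0.0483).

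Other genes of mitochondrial translation were read beside the members. Of 3 further mitochondrial ribosomal genes outside the naming rule, tko, which encodes a small-subunit protein of the decoding centre, was higher in dsxRNAi males (20.1 ± 0.590 CPM against 15.8 ± 0.536 CPM in control males, log2 0.35, adjusted p = 0.0291), a call that was lost on library totals only (log2 0.10, adjusted p = 0.517). It was also higher in control females (22.7 ± 0.815 CPM) than in control males (log2 0.52, adjusted p = 0.00241). bonsai, named here for its known role in the gut and not by the naming rule, had 27.2 ± 0.540 CPM in dsxRNAi males and 25.8 ± 1.10 CPM in control males (log2 0.08, adjusted p = 0.421). In females bonsai had 26.2 ± 1.23 CPM under dsxRNAi and 27.4 ± 0.496 CPM in controls (log2 -0.07, adjusted p = 0.687).

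Of 9 tested mitochondrial translation factors, 3 elongation factors were called higher in dsxRNAi males and 0 factors lower on the TMM scale, where 8.05% of all tested genes were called higher. mEFG1, which moves the ribosome along the message, had 19.7 ± 2.79 CPM in dsxRNAi males against 13.1 ± 0.793 CPM in control males (log2 0.59, adjusted p = 0.00294). mEFTu1, which delivers the transfer RNAs, had a change of 0.37 (adjusted p = 0.0111), and its exchange factor mEFTs one of 0.33 (adjusted p = 0.0214). None of these calls held on library totals only, where 0 of the 9 factors were called, their median was -0.03 against 0.22 on the TMM scale, and the changes were 0.34 for mEFG1, 0.12 for mEFTu1 and 0.07 for mEFTs. In the same comparison 0 of 14 tested mitochondrial aminoacyl-tRNA synthetases were called by edgeR (2 at an unadjusted p under 0.05, and 1 called by DESeq2), with a median of 0.14 and 11 of 14 above 0. Their median was -0.11 on library totals only, with 2 called lower, AlaRS-m and LeuRS-m. On that scale 3199 of all 9686 tested genes were called in males in either direction, with a median of -0.27. Of 13 tested genes of mitochondrial DNA and RNA maintenance 1 was called, scu, a subunit of mitochondrial ribonuclease P (log2 0.61, adjusted p = 0.0016), which was also called on library totals only (log2 0.35, adjusted p = 0.00499). Import and protein folding genes gave 5 of 16 called higher on the TMM scale, among them Tom7 and Tom70 of the outer membrane translocase (log2 0.42 and 0.37) and the chaperones Hsp60A and Hsc70-5 (log2 0.35 and 0.25). Of the 16, 0 were called higher and 2 lower (ClpX and Lon) on library totals only, and the changes were 0.17 for Tom7, 0.12 for Tom70, 0.09 for Hsp60A and -0.01 for Hsc70-5. In females under dsxRNAi 0 genes of these 5 lists were called by edgeR or by DESeq2, with 1 translation factor at an unadjusted p under 0.05.

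Among the other comparisons of these lists, control females were higher than control males in the translation factor mEFTu2 (log2 0.31, adjusted p = 0.0149) and lower in MetRS-m, the mitochondrial methionyl-tRNA synthetase (log2 -0.44, adjusted p = 0.0107). Also called higher in control females were 3 of 16 import and protein folding genes and 1 of 13 maintenance genes, not named here. Over all tested genes 10.7% were called higher and 9.27% lower in that comparison. Under dsxRNAi, females were lower than males in MetRS-m (log2 -0.46, adjusted p = 0.0144), TrpRS-m (log2 -0.56, adjusted p = 0.00573), Hsp60A (log2 -0.55, adjusted p = 0.00236) and scu (log2 -0.41, adjusted p = 0.0171). The calls of MetRS-m between control females and control males and of Hsp60A and scu under dsxRNAi were kept on library totals only. The other 3 of the 6 named calls were lost, with their signs unchanged.

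Regulators of growth and of mitochondrial genes gave 1 called higher and 2 lower of 9 in dsxRNAi males on the TMM scale, where 8.05% of all tested genes were called higher and 6.59% lower. Myc, which drives growth and ribosome production, had 108 ± 15.7 CPM in dsxRNAi males against 80.3 ± 3.19 CPM in control males (log2 0.42, adjusted p = 0.0106), and srl, the fly counterpart of the PGC-1 coactivators, had 24.0 ± 4.85 against 17.7 ± 2.11 CPM (log2 0.44, adjusted p = 0.0504). Between control females and control males the Myc values were further apart (256 ± 8.64 against 80.3 ± 3.19 CPM, log2 1.67, adjusted p = 1.1e-06), as were those of srl (36.3 ± 0.894 against 17.7 ± 2.11 CPM, log2 1.04, adjusted p = 0.000446). The members had a median of 0.09 in that comparison. ERR, a nuclear receptor of energy metabolism (log2 -0.50, adjusted p = 0.00961), and foxo, a transcription factor restrained by insulin signalling (log2 -0.40, adjusted p = 0.0224), were lower in dsxRNAi males. Of the 9, 0 were called higher and 6 lower on library totals only, ERR and foxo among them, and Myc had a change of 0.18 (adjusted p = 0.228). On that scale 3199 of all 9686 tested genes were called in either direction, with a median of -0.27.

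The cytoplasmic ribosome, which makes the members themselves, was set beside them. Between control females and control males 76 of 80 tested cytoplasmic genes were called higher, with a median of 0.61, against 6 of 71 members and a median of 0.09. Over all tested genes 10.7% were called higher, with a median of -0.01. The counts of the members per 1000 cytoplasmic ribosomal protein counts were 17.9, 14.7 and 14.6 in control females and 23.0, 22.9 and 22.6 in control males. These values did not overlap, and they do not depend on library scaling. In dsxRNAi females the ratio was 17.7, 16.8 and 16.7, in dsxRNAi males 19.7, 23.1 and 21.3, again without overlap. Between dsxRNAi males and control males the ratio overlapped, and 25 of the 80 cytoplasmic genes were called higher under dsxRNAi, with a median of 0.29 (3 called and a median of 0.03 on library totals only). Over all tested genes 8.05% were called higher, with a median of -0.01. On library totals only 3199 of all 9686 tested genes were called, with a median of -0.27.

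Nuclear genes of respiratory complex I, some of whose partner subunits the mitochondrial ribosome makes, were set beside the members too. In dsxRNAi males 22 of 33 were called higher than in control males, with a median of 0.35 (3 called and a median of 0.09 on library totals only). Over all tested genes 8.05% were called higher, and on library totals only 3199 of 9686 were called, with a median of -0.27. Between control females and control males 0 of 33 complex I genes were called by edgeR (5 at an unadjusted p under 0.05, and 0 called by DESeq2), with a median of 0.10, and under dsxRNAi 6 of 33 were lower in females, with a median of -0.20 (1 called and -0.04 on library totals only). Over all tested genes 20% were called in either direction between the controls. Under dsxRNAi 7.06% were lower in females, and on library totals only 2324 of 9686 were called, with a median of 0.17. The counts of the members per 1000 complex I counts were 430, 408 and 443 in dsxRNAi males and 467, 477 and 459 in control males, and the ratio was lower under dsxRNAi, without overlap and with no dependence on library scaling. Transcripts of the mitochondrial genome, of which 19 were tested in these poly-A libraries, had medians of 0.32 in dsxRNAi males against control males (4 called higher), -0.10 in dsxRNAi females against control females (2 lower), 0.19 in control females against control males (3 higher) and -0.31 in dsxRNAi females against dsxRNAi males (5 lower). On library totals only these medians kept their signs, at 0.08, -0.14, 0.14 and -0.14. Over all tested genes the shares called on the TMM scale were 8.05% higher, 1.55% lower, 10.7% higher and 7.06% lower, in the same order. The medians of all tested genes on library totals only were -0.27, -0.05, -0.05 and 0.17.

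**Figure D5:**
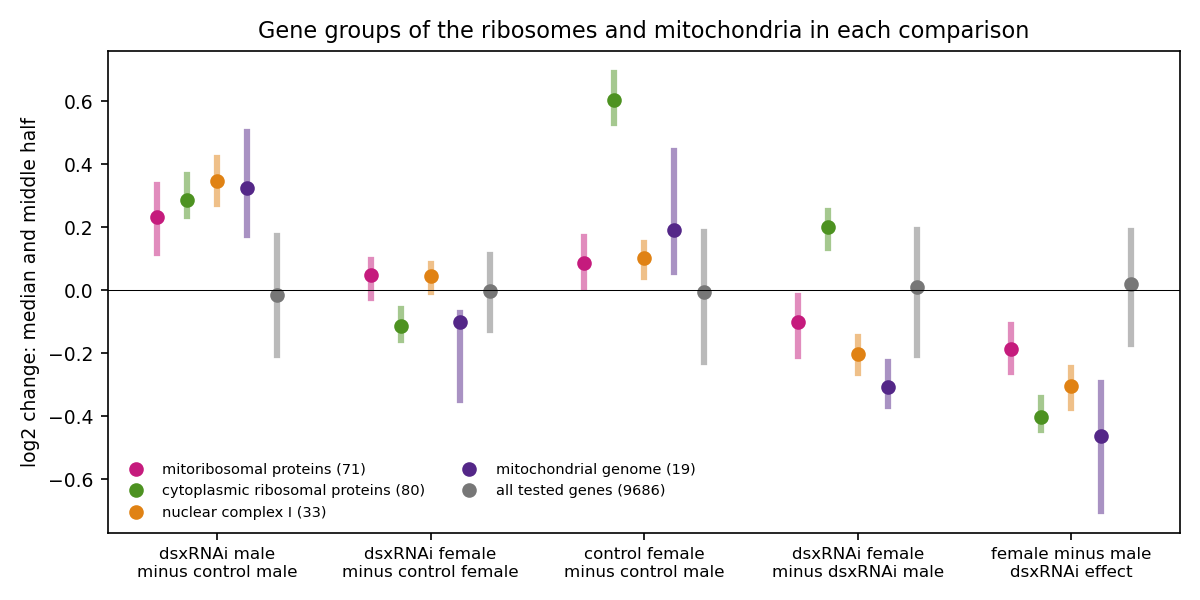
Median log2 change on the TMM scale (point) with lower and upper quartile (bar) of the tested mitochondrial ribosomal protein, cytoplasmic ribosomal protein, nuclear complex I and mitochondrial genome genes and of all tested genes, in 5 comparisons. The cytoplasmic genes stand apart between control females and control males (0.61 against 0.09 for the members), while the members and complex I lie on the same side of 0 in each comparison. On library totals only, the median of the members was -0.02 in males under dsxRNAi and 0.06 in dsxRNAi females against dsxRNAi males.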

How the data were processed

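Poly-A RNA libraries of fly midguts, 12 in 4 groups of 3, were compared. The authors deposited raw read counts per gene, from reads aligned with TopHat2 2.0.11 to dm6 and counted with featureCounts, per the submitters' processing notes. No label or header names the strand setting, annotation release or filters.

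Genes were kept by edgeR 4.0.16 (R 4.3.3) with a minimum count of 10 and scaled by TMM. A robust quasi-likelihood fit of all 12 libraries used the means of the 4 groups. Fitted changes used a prior count of 0.125, and p-values were adjusted by Benjamini-Hochberg over all 9686 tested genes of a contrast. The fit was tested on simulated data. Gene positions and exonic lengths came from an Ensembl annotation on dm6 coordinates, where 71 of 72 members matched by identifier and mRpS5 by symbol. Of the annotation's genes, mRpS34 is not analysed here.

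The members, gene lists and tests were chosen with earlier results of these data known. Members were named by a rule: up to 8 called members per direction and contrast with the smallest p, members failing the filter, the 3 highest and 3 lowest per length, called members against the majority, and, of other lists, up to 4 called genes with the smallest p. Called import and maintenance genes between control females and control males were counted but not named. The shares of mRpS5 and of other members, mRpL42 and bonsai are additions, and mRpL42 was named after its values were seen. Alternatives were relative log expression (RLE), DESeq2 1.42.0, TMM without the 100 most abundant genes, a minimum count of 50, no filter, only the groups compared, a replicate block and each library left out. Library totals without factors were added after the data were seen. Figures used Python 3.11.15 and matplotlib 3.10.9.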

Additional observations from a re-analysis of the deposited data

How the results depend on the processing

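Of 41 gene calls, all 41 kept direction and threshold under RLE scaling, TMM without the 100 most abundant genes, DESeq2 and a minimum count of 50. Without a filter 6 were lost, with only the groups compared 9, and on library totals 35, of which the cause was not tested. On library totals 2 reversed, mRpL22 (-0.020) and mRpL45 (-0.0031) in males under dsxRNAi, and so did the member medians in males (-0.020), in dsxRNAi females against dsxRNAi males (0.062) and in the difference between the sexes (0.026).

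Counts of calls that moved by over 1.5 times on library totals were 4 in males and 0 in females under dsxRNAi, 1 between control females and control males, and 2 between dsxRNAi females and dsxRNAi males. Over all 9686 tested genes the calls on library totals were 3199, 299, 1620 and 2324, in the same order. In females under dsxRNAi the count of members called was 0 with only the groups compared and 2 with DESeq2. Over all genes these fits called 221 of 9331 and 576 of 14368, against 335 of 9686 in the main fit. Between dsxRNAi females and dsxRNAi males the count of members called was 4 without a filter, 11 at a minimum count of 50, 4 with only the groups compared and 11 with DESeq2. Over all genes the calls were 1153 of 14368, 1423 of 8300, 1039 of 9266 and 1798 of 14368, in the same order. The difference between the sexes gave 2 members with DESeq2, where 344 of all 14368 genes were called.

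Leaving out 1 library gave 12 to 22 calls in males and 0 to 1 in females under dsxRNAi, 1 to 7 between control females and control males, 1 to 8 between dsxRNAi females and dsxRNAi males, and 0 in the difference between the sexes. Over all tested genes the calls in males were 856 to 1195 in these fits, against 1418 with all libraries. The all-gene calls were 204 to 360 in females under dsxRNAi, 1325 to 1890 between control females and control males, and 637 to 1145 between dsxRNAi females and dsxRNAi males. In the difference between the sexes they were 33 to 127. With a replicate block there were 25 member calls in males and 2 in females under dsxRNAi (mRpL24 added), 7 and 7 in the sex comparisons and 0 in the difference. Over all tested genes the block fit gave 1452, 328, 1994, 1468 and 67 calls, in the same order. Libraries with the same number showed no clear shared deviation (correlations -0.30 to 0.11). Deviations from means of 3 libraries cannot settle whether the numbers pair them.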
